A study of Mus musculus with 201 samples.

Results

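Transcripts of 5 genes of the neurotrophin system were followed through single dentate granule cells (DGCs) and their nuclei. The members, taken as a named list and not for their values, were the ligands *Bdnf* and *Ntf3* and the receptors *Ntrk2*, *Ntrk3* and *Ngfr*. All 5 were among the 42609 gene symbols present in all 3 pairs of deposited tables. The whole cells came from mice of a Prox1-GFP strain given an injection of either saline or PTZ, which blocks GABA(A) receptors and causes seizures, and were sorted as GFP+ after dissociation with a protease. The nuclei came from C57BL/6 mice. Those of a mouse placed in an unfamiliar environment (NE) were sorted as PROX1+ and either FOS+ or FOS- by antibody staining, and those of a home-cage (HC) mouse are labelled NeuN+ and PROX1+, which the methods describe as scored from images of the stained nuclei at the capture sites of a microfluidic chip. FOS protein marks recently active neurons, so that the FOS+ and FOS- nuclei shared 1 animal, 1 exposure and 1 table and differed by the sort. The whole-cell dissociates were pooled from 2 mice per treatment according to the methods, whereas the series text names a single mouse, and GFP in these mice is driven by the *Prox1* promoter.

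Neurotrophins are secreted growth factors that are made as precursors, cleaved, and released from neurons, in part in response to activity. BDNF acts through the receptor tyrosine kinase TRKB, encoded by *Ntrk2*, and neurotrophin-3, encoded by *Ntf3*, acts mainly through TRKC, encoded by *Ntrk3*. *Ngfr* encodes the low-affinity receptor that binds all neurotrophins and their precursors. In the hippocampus *Bdnf* is known as an activity-dependent gene, granule cells store BDNF protein in their mossy fibre terminals, and TRKB signalling is a known requirement for several forms of synaptic plasticity. *Ntrk2* and *Ntrk3* each give rise to forms with and without a kinase domain, which gene-level values do not separate.

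The tables gave 40 of 48 FOS+ nuclei, 41 of 48 FOS- nuclei, 30 of 35 PTZ cells and 38 of 47 saline cells after the limits on depth and genes, and all 23 HC nuclei were used. Every NE nucleus and whole cell left out was below the limit on depth, so the limit on genes removed no further library. A kept FOS+ nucleus had only 1373 detected genes. Summed expected counts ran from 63775 to 1060520 in the NE nuclei, from 107647 to 278779 in the HC nuclei and from 67212 to 5129240 in the whole cells. No columns were identical, and each column was a sample of its own. This check cannot show whether 2 libraries came from the same cell. Because no label ties cells to different animals, each group was treated as 1 sample and its cells were not used as replicates. The comparisons are therefore descriptions without a p value. A gene was called detected in a cell at a TPM value (transcript abundance per length, scaled to a fixed sum in each cell) above 1. Shares of cells are given with exact 95% binomial intervals and summed counts with exact Poisson intervals, both of which cover counting error only. The counts are amplified reads without molecular identifiers, so that the Poisson intervals leave out the spread from amplification and are too narrow for RNA molecules. The SD is the spread over cells. Of the 7 granule cell markers examined, all were detected in every group, with *Prox1* in 33 of 40 FOS+ nuclei, 34 of 41 FOS- nuclei, 14 of 23 HC nuclei and every whole cell. In 1 FOS+ nucleus, 5 HC nuclei, 2 PTZ cells and no FOS- nucleus or saline cell, the markers of another cell type summed to more TPM than the granule cell markers. The PTZ cell farthest from its label held 5 of 7 astrocyte markers with a summed level of 12699 TPM and, of the granule cell markers, only *Prox1* at 95.7 TPM. The other PTZ cell had 1302 TPM of pyramidal cell markers against 449 TPM of granule cell markers. The FOS+ nucleus had 2073 TPM of astrocyte markers against 1457 TPM of granule cell markers, and the HC nuclei had 69.8 to 3231 TPM of astrocyte or interneuron markers against 52.5 to 662 TPM. A further FOS+ nucleus had 4304 TPM of microglia markers beside 8406 TPM of granule cell markers, of which it detected 2 of 7, with *Bdnf* at 3.61 TPM and *Ntrk2* at 130 TPM. A FOS- nucleus had 2437 TPM of astrocyte and 1313 TPM of interneuron markers beside 5194 TPM of granule cell markers. It detected 3 of 7 granule cell markers, with *Bdnf* and *Ntrk2* at 0. The granule cell marker *Calb1* had a mean of 4761 TPM in FOS+ and 8075 TPM in FOS- nuclei, so few NE nuclei could meet this criterion. Without the FOS+ nucleus whose astrocyte markers were in excess, FOS+ over FOS- detection differed by 48.2 percentage points for *Bdnf* and 21.1 for *Ntrk2*. Values without the HC nuclei and PTZ cells of this kind are given where those groups are described.

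**Figure D1:**
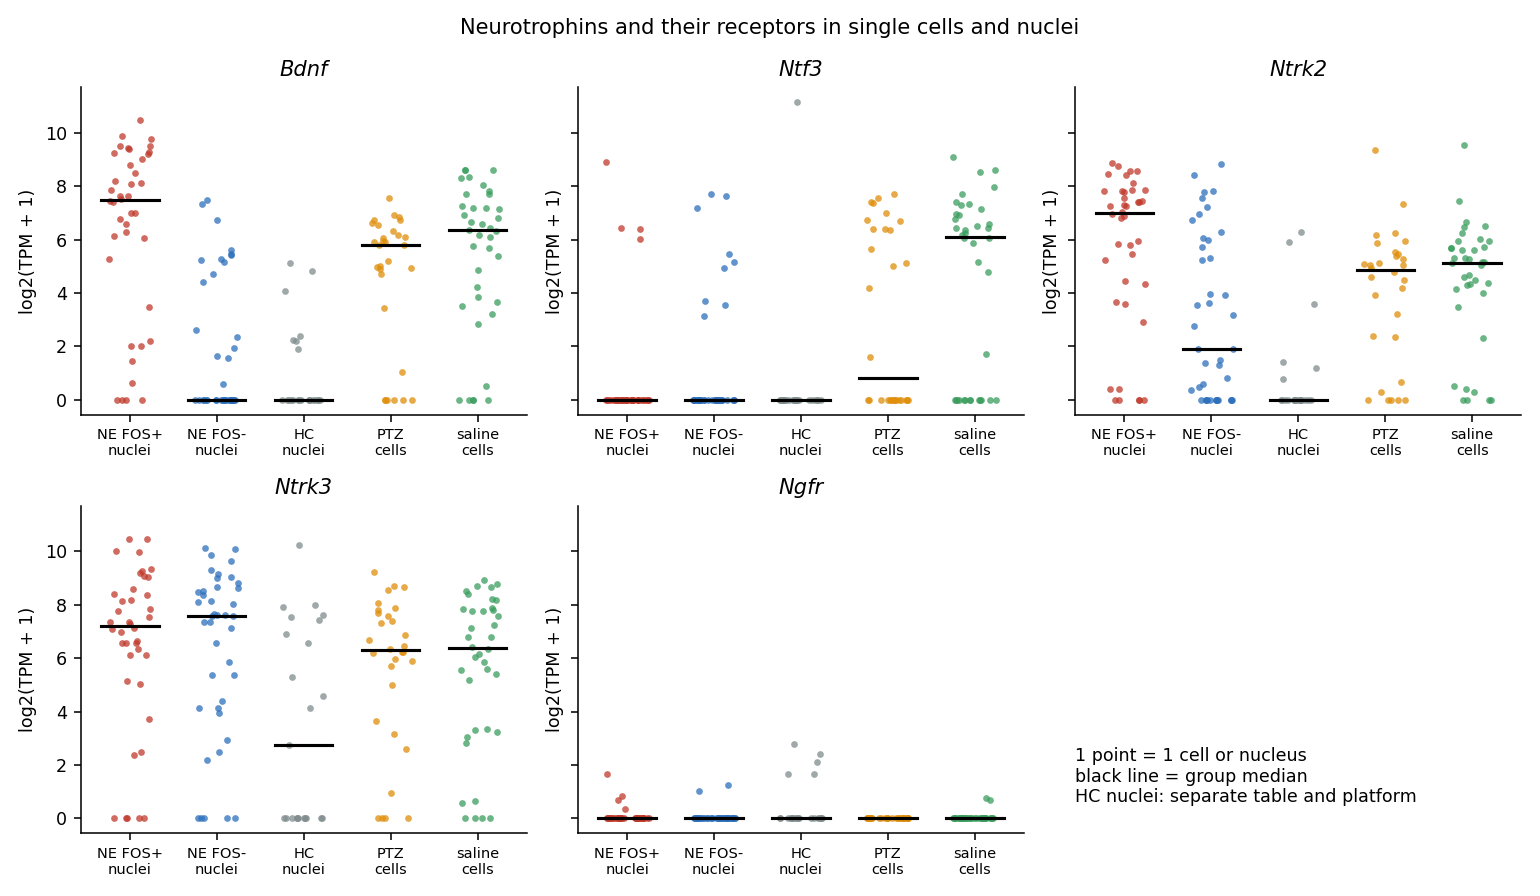
Level of each member in single cells and nuclei. The vertical axes give log2(TPM + 1) with a pseudocount of 1, each point is a cell or nucleus that was kept and black lines are group medians. *Bdnf* is high in most FOS+ nuclei (median 176 TPM) and at 0 in most FOS- and HC nuclei, *Ntrk3* has similar medians in FOS+ and FOS- nuclei (148 and 193 TPM), and *Ngfr* is near 0 throughout.

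*Bdnf*, which encodes brain-derived neurotrophic factor, lies on chromosome 2 of GRCm38 from 109674700 to 109727007 on the plus strand (ENSMUSG00000048482.14). Among the NE nuclei it was the member that differed most between the sorts. FOS+ nuclei held between 0 and 1439 TPM, with a median of 176 TPM and a mean of 298 ± 334 TPM (SD, n = 40). FOS- nuclei held between 0 and 179 TPM, with a median of 0 and a mean of 18.2 ± 40.5 TPM (SD, n = 41). The ranges overlapped at the low end, yet 20 of 40 FOS+ nuclei lay above the highest FOS- nucleus and 1 of 41 FOS- nuclei lay above the FOS+ median. Detection of *Bdnf* reached 35 FOS+ nuclei, or 87.5% with an interval of 73.2 to 95.8%, against 16 FOS- nuclei, or 39.02% with an interval of 24.2 to 55.5%. The difference was 48.5 percentage points (interval 26.7 to 65.5), and it ranked 25 by size among the 16387 genes considered, those detected in at least 5 NE nuclei. Summed over the group, *Bdnf* had 12106 counts in FOS+ nuclei (interval 11891 to 12324) and 665 in FOS- nuclei (interval 615 to 718). Mean CPM (counts scaled by each nucleus's sum), with each nucleus weighted equally, were 693 and 41.6, a 16.7-fold difference (log2 ratio 4.06). Among the nuclei that detected the gene the median was 200 TPM in FOS+ and 35.6 TPM in FOS- nuclei.

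The excess of *Bdnf* in FOS+ nuclei was present in each of the 4 amplification conditions, which crossed 2 concentrations of the template-switching oligonucleotide (TSO) with 2 dilutions of the ERCC spike-in. At 1 µM TSO and an ERCC dilution of 1:200 the gene was detected in 10 of 10 FOS+ and 5 of 10 FOS- nuclei, and at 1:2000 in 7 of 8 and 3 of 10. At 10 µM TSO it was detected in 8 of 11 and 1 of 10 nuclei at 1:200 and in 10 of 11 and 7 of 11 nuclei at 1:2000. Mean CPM differed by between 11.4-fold and 68.03-fold over these conditions, the largest ratio coming from the condition with the lowest FOS- mean (4.82 CPM). The FOS- nucleus with the highest *Bdnf* also had the highest *Ntrk2* of its sort (461 TPM). It had no *Prox1* but detected 4 of 7 granule cell markers, and without it the log2 ratio of *Bdnf* was 4.42.

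**Figure D2:**
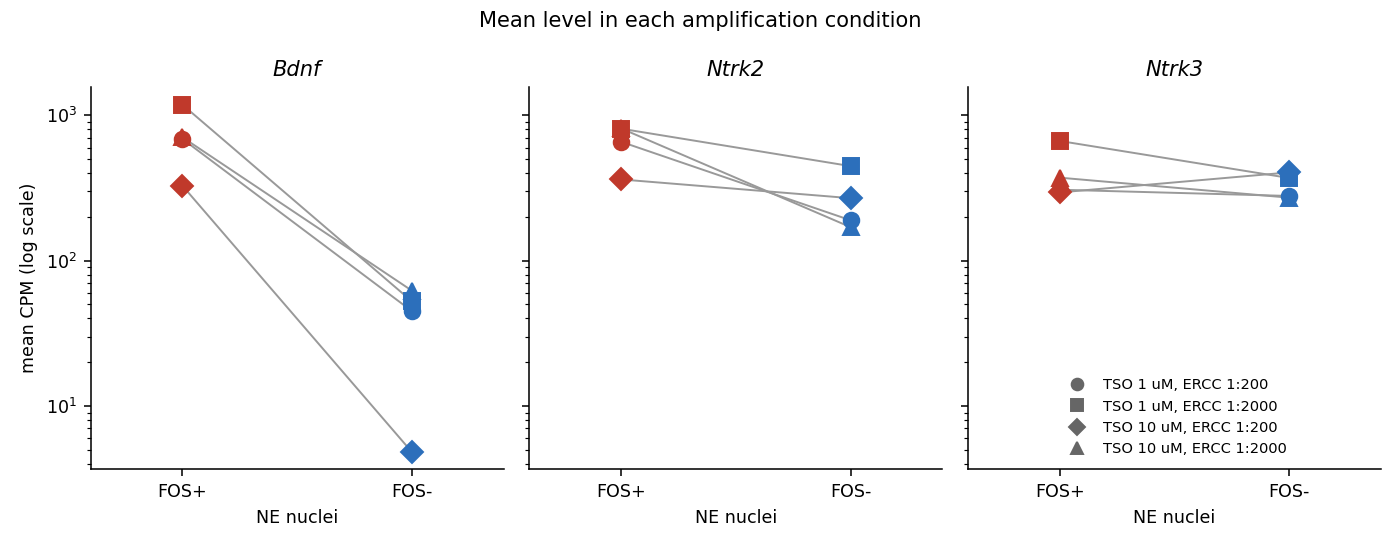
Mean CPM of *Bdnf*, *Ntrk2* and *Ntrk3* in FOS+ (red) and FOS- (blue) NE nuclei, on a log scale, with a symbol for each amplification condition and a line joining the sorts of the same condition. For *Bdnf* every FOS+ mean (328 to 1184 CPM) lies above every FOS- mean (4.82 to 62.2 CPM), for *Ntrk2* the lines fall less steeply, and for *Ntrk3* they run both ways.

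*Bdnf* has several alternative first exons, each with a promoter of its own, spliced to a shared coding exon, and several of these promoters are known to respond to neuronal activity. The RefSeq promoter table (GRCm38.p6) holds 7 start sites for the gene. The 250 bases before each start were searched on both strands for the cAMP response element (CRE, TGACGTCA), its half-site CGTCA and the AP-1 site TGANTCA. The CRE half-site is part of the full CRE, so that a full site counts for both. No *Bdnf* window held a full CRE, 1 of 7 held the half-site and 1 of 7 the AP-1 site. Of all 32851 windows of this length, 1.55% held a full CRE, 17.8% the half-site and 6.75% the AP-1 site. The windows with a match are shown because they hold the letters searched for upstream of the member that differed most, with the match in capitals. Neither overlaps an annotated *Bdnf* exon. The first window spans chr2:109676782-109677031 and the other chr2:109692186-109692435, both in GRCm38.p6 and on the plus strand.
Bdnf, window with the AP-1 site: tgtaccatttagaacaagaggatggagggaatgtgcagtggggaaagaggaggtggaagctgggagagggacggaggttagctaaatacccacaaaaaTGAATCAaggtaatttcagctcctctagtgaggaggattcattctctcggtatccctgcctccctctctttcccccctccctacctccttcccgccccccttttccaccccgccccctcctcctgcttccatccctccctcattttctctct
Bdnf, window with the CRE half-site: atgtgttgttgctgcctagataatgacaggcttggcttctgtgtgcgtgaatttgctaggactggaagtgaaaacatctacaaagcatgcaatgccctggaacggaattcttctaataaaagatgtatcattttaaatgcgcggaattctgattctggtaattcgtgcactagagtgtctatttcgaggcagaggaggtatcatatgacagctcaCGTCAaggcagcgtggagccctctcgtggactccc
The AP-1 match starts 152 bases and the half-site match 35 bases before the start of transcription. The windows before the starts of *Ntrk2* (1 window), *Ntf3* (2 windows) and *Ngfr* (1 window) held none of the 3 motifs. Gene-level values do not show which start was used, and a match of letters is not a bound site.

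*Ntrk2*, the gene of the BDNF receptor TRKB, lies on chromosome 13 from 58806569 to 59133970 on the plus strand (ENSMUSG00000055254.15). It was also at a higher level in FOS+ nuclei, by less than *Bdnf* and with more overlap. FOS+ nuclei held between 0 and 465 TPM with a median of 126 TPM, and FOS- nuclei held between 0 and 461 TPM with a median of 2.77 TPM. The highest values of the sorts were alike, and 6 of 41 FOS- nuclei lay above the FOS+ median. The receptor gene was present in 33 of 40 FOS+ nuclei, or 82.5% with an interval of 67.2 to 92.7%, and in 25 of 41 FOS- nuclei, or 60.98% with an interval of 44.5 to 75.8%, a difference of 21.5 percentage points (interval 0.236 to 40.9). Mean CPM were 649 and 266, a 2.44-fold difference, and the summed counts were 10019 (interval 9824 to 10217) and 4189 (interval 4063 to 4318). The share difference depended on the low values. It was 10.4 percentage points with all 96 nuclei of the table, 16.8 points with detection at any TPM above 0 and 33.7 points with detection at a TPM above 5. Among the amplification conditions it was 50, 25, 2.73 and 9.09 points, while mean CPM was higher in FOS+ nuclei in all 4, by 1.35-fold to 4.78-fold. *Ntrk2* is also strongly expressed by astrocytes, so their markers were read beside it. The summed level of the 7 astrocyte markers ran from 0 to 2073 TPM in FOS+ nuclei (median 18.2 TPM) and from 0 to 2437 TPM in FOS- nuclei (median 30.98 TPM). *Slc1a3* was detected in 31 of 40 FOS+ and 25 of 41 FOS- nuclei, and *Slc1a2* in 11 and 22. *Aldoc* was detected in 4 and 5 nuclei, *Gfap* in 3 and 1, *Aqp4* in 2 and 1 and *Gja1* in 1 of each sort, while *Aldh1l1* was detected in none. The FOS+ nucleus with the highest *Ntrk2* had 6.80 TPM of these markers in sum and 296 TPM of *Bdnf*. The FOS- nucleus with the highest *Ntrk2* had 151 TPM of these markers, with 2 of 7 detected, and 179 TPM of *Bdnf*. The part of such RNA in the difference was not tested.

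*Ntrk3*, the gene of the neurotrophin-3 receptor TRKC, lies on chromosome 7 from 78175959 to 78738012 on the minus strand (ENSMUSG00000059146.12). It was detected in 35 of 40 FOS+ nuclei (87.5%) and 36 of 41 FOS- nuclei (87.8%), a difference of -0.305 percentage points (interval -16.7 to 15.99). Levels reached 1413 TPM in FOS+ and 1132 TPM in FOS- nuclei, with medians of 148 and 193 TPM. Means were 290 ± 366 TPM (SD, n = 40) and 270 ± 302 TPM (SD, n = 41), so that the difference in means was smaller than the spread over nuclei. The mean CPM of 393 and 330 gave a 1.19-fold ratio, and its direction was not the same in all amplification conditions (0.728-fold to 1.799-fold).

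*Ntf3*, which encodes neurotrophin-3, lies on chromosome 6 from 126101412 to 126166910 on the minus strand (ENSMUSG00000049107.13). It was found in few NE nuclei, but at a substantial level where it was found. It was detected in 4 of 40 FOS+ nuclei (10%, interval 2.79 to 23.7%), which held between 64.4 and 475 TPM. In FOS- nuclei it was detected in 9 of 41 (21.95%, interval 10.6 to 37.6%), which held between 7.86 and 209 TPM. The difference of -12.0 percentage points had an interval of -29.2 to 5.84, and mean CPM were 13.97 and 13.67. A single FOS+ nucleus held 73.5% of the FOS+ counts, and without it the log2 ratio of mean CPM changed from 0.03 to -1.57. The sign of the share difference also varied, being 17.3 points at 10 µM TSO and 1:200 and between -36.4 and -10 points in the other conditions.

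*Ngfr*, the gene of the low-affinity receptor, lies on chromosome 11 from 95568818 to 95587735 on the minus strand (ENSMUSG00000000120.6). It was at the limit of detection. It was above 1 TPM in 1 of 40 FOS+ and 2 of 41 FOS- nuclei, with 3 counts in sum in each sort and a highest value of 2.18 TPM. No fold is given for so few counts. It was not among the genes considered, so that 4 of the 5 members were.

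The size of these differences was read against all genes by a rule that asked for a difference of at least 20 percentage points in detection and of at least 2-fold in mean CPM, in the same direction. Of the 16387 genes considered, 474 were past the rule with higher values in FOS+ nuclei (2.89%) and 421 with lower values (2.57%). *Bdnf* and *Ntrk2* were past it as higher, *Ntrk3* and *Ntf3* were not past it. *Bdnf* was past the rule under each of 6 other settings, whereas *Ntrk2* was not past it with all nuclei of the table or with a 4-fold limit on CPM. Outside these 6 settings, the share difference of *Ntrk2* was also below 20 points with detection above 0 TPM (16.8 points). The same held in the 2 amplification conditions with 10 µM TSO (2.73 and 9.09 points). The median log2 ratio of mean CPM was 0.77 over the 4 members considered and -0.22 over all genes considered. As a reference, *Arc*, an immediate early gene of synaptic plasticity, was detected in 31 of 40 FOS+ and 1 of 41 FOS- nuclei and *Egr1*, which encodes an activity-dependent transcription factor, in 13 and 5. *Fos* RNA, whose protein defined the sort, was detected in 12 and 3.

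**Figure D3:**
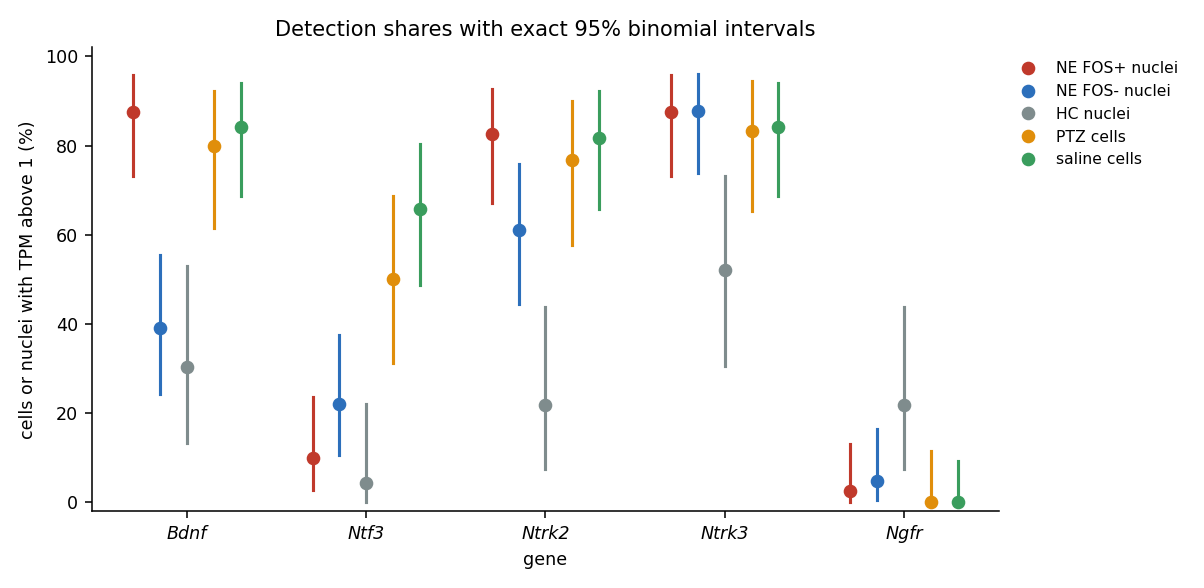
Share of cells or nuclei with a TPM above 1 for each member and group. Points are shares in percent and lines are exact 95% binomial intervals, which cover counting error only. The intervals of the FOS+ and FOS- nuclei are apart for *Bdnf* (73.2 to 95.8% and 24.2 to 55.5%) and overlap for the other members, and those of the PTZ and saline cells overlap for every member.

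*Bdnf* was detected in 35 and its receptor gene in 33 of 40 FOS+ nuclei, and in 16 and 25 of 41 FOS- nuclei. These shares alone make joint detection in the same nucleus common in the FOS+ sort, and no expected count was set beside it. Both *Bdnf* and *Ntrk2* were detected in 31 of 40 FOS+ nuclei, *Bdnf* alone in 4, *Ntrk2* alone in 2 and neither in 3. In FOS- nuclei both were detected in 9 of 41, *Bdnf* alone in 7, *Ntrk2* alone in 16 and neither in 9. *Bdnf* was detected with *Arc* in 30 FOS+ nuclei and in 0 FOS- nuclei, 16 of which detected *Bdnf* without *Arc*. Only 1 of 41 FOS- nuclei detected *Arc* at all, so joint detection could hardly occur there. Across nuclei, Pearson's r of log2(TPM + 1) between *Bdnf* and *Ntrk2* was 0.642 over the 40 FOS+ nuclei and -0.00405 over the 41 FOS- nuclei. Between *Bdnf* and *Ntrk3* it was 0.0567 and -0.427. These values are descriptions over nuclei of 1 animal that share plates and range widely in depth. All 4 FOS+ nuclei and 8 of the 9 FOS- nuclei with *Ntf3* also detected *Ntrk3*, which was present in most nuclei of both sorts. Of the 5 members, 3 were detected in 27 of 40 FOS+ nuclei, and 2 in 22 of 41 FOS- nuclei.

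**Figure D4:**
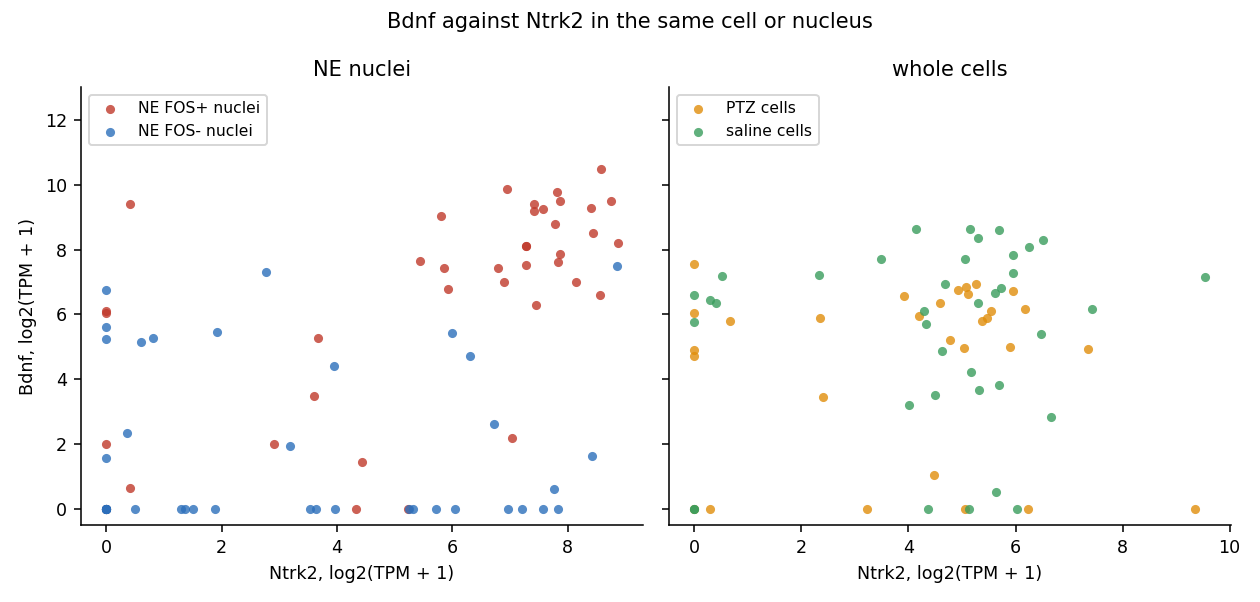
*Bdnf* against *Ntrk2* in the same NE nucleus (left) or whole cell (right), both axes as log2(TPM + 1), coloured by group. Most FOS+ nuclei lie in the upper right, with both genes detected in 31 of 40, while FOS- nuclei lie along the axes, with both detected in 9 of 41. PTZ and saline cells overlap over much of the plot, and 9 of 38 saline cells lie above the highest PTZ cell in *Bdnf*.

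The genes whose level over the 81 NE nuclei was most like that of each member were looked up among 9351 genes detected in at least 20 of them. For *Bdnf* these were 1700016P03Rik (r = 0.742), *Plk2*, which encodes an activity-inducible kinase (r = 0.730), and *Arc* (r = 0.725). Within FOS+ nuclei their r was 0.667, 0.657 and 0.642, within FOS- nuclei 0.440, 0.312 and -0.0663, and over the 68 whole cells 0.344, 0.332 and 0.520. *Arc* was above 0 TPM in only 3 of 41 FOS- nuclei, with 4 counts in sum, so its r there cannot be read as a lack of relation. For *Ntrk2* the closest genes were *Prosc* (r = 0.586), *Rbbp7* (r = 0.576) and *Nr4a2*, which encodes an inducible nuclear receptor (r = 0.576). Within FOS+ nuclei their r was 0.524, 0.436 and 0.610, within FOS- nuclei 0.524, 0.539 and 0.247, and over whole cells 0.190, -0.0810 and 0.0883. For *Ntrk3* they were *Trim2* (r = 0.452), *Sgip1* (r = 0.452) and 4930558J18Rik (r = 0.443). The r of the *Ntrk3* genes was 0.288, 0.479 and 0.2251 within FOS+ nuclei and 0.585, 0.451 and 0.649 within FOS- nuclei. The r over all nuclei includes any difference between the sorts, and the r within a sort does not. The paper describes some nuclei sorted as FOS+ whose expression clustered with FOS- nuclei, and filtered them from its main comparison. Such nuclei were not set apart here, so that the FOS+ values and the r within FOS+ nuclei may mix both kinds.

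The other genes of neurotrophin signalling were taken from a list of 120 genes, of which 107 were considered in the NE nuclei. Past the rule were 10 with higher values in FOS+ nuclei (9.35% of those considered, beside 2.89% of all genes) and 1 with lower values (0.935%, beside 2.57%). The median log2 ratio over the list was -0.04, beside -0.22 over all genes. *Ntf5*, the gene of the ligand neurotrophin-4, was detected in 3 FOS+ and 7 FOS- nuclei at up to 8.76 TPM.

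Among 6 receptors and co-receptors considered, 2 were past the rule. *Lingo1*, which encodes a co-receptor of NGFR in neurite growth inhibition, was detected in 33 of 40 FOS+ and 14 of 41 FOS- nuclei, with mean CPM of 605 and 17.2 (35.3-fold). *Sorcs3*, which encodes a sortilin-family receptor, was detected in 13 and 5 nuclei and differed 2.47-fold, just past the limit on shares (20.3 points). *Sort1*, which encodes sortilin, a receptor of proneurotrophins, was not past the rule, with 21 and 27 nuclei and mean CPM of 100 and 245. Among 10 genes of precursor processing and release, 2 were past the rule. *Scg2*, which encodes the dense-core vesicle protein secretogranin II, was detected in 34 and 17 nuclei and differed 6.08-fold. *Pcsk1*, which encodes a proprotein convertase, was detected in 11 FOS+ nuclei and had no count in FOS- nuclei, which makes it at least 207-fold higher against a floor of 3 counts over the group.

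Of the signalling genes, those of the RAS-MAPK arm were past the rule in 5 cases, 4 higher and 1 lower of 18 considered. *Rps6ka3*, which encodes the ribosomal S6 kinase RSK2, was detected in 25 FOS+ and 8 FOS- nuclei (8.31-fold in mean CPM), and *Mapkapk2* in 12 and 2 (105-fold). *Braf*, which encodes a RAF kinase, was detected in 36 and 27 nuclei (3.02-fold). Among the 20 TRK adaptors considered, *Grb2* was past the rule (18 and 9 nuclei, 3.39-fold), and of 10 genes of the PLC-calcium arm *Camk2d* was (14 and 5 nuclei, 16.9-fold). None of the 11 genes of the PI3K-AKT arm, the 12 NGFR partners or the 19 regulators of *Bdnf* transcription was past the rule. Of these regulators 12 had a log2 ratio above 0, with a median of 0.06 over the 19. *Npas4* was detected in 7 FOS+ nuclei and had no count in FOS- nuclei, a difference of 17.5 points and so below the limit on shares.

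**Figure D5:**
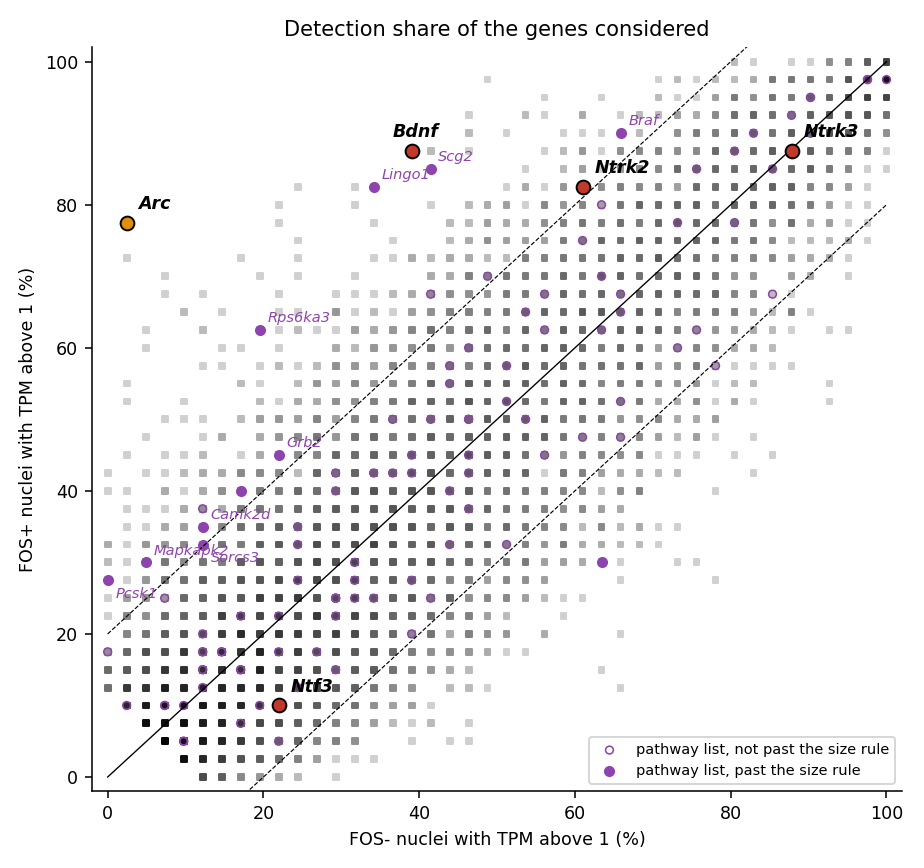
Share of FOS+ nuclei against share of FOS- nuclei with a TPM above 1, in percent. Grey squares are all genes considered, darker where more genes share a position. Purple circles are the pathway list, filled where past the rule, larger red points are members and *Arc* is orange. The solid line marks equal shares and the dashed lines a difference of 20 percentage points. *Bdnf* (87.5% and 39.02%) lies among the genes farthest above the line, with *Lingo1* and *Scg2* near it, and *Ntrk2* (82.5% and 60.98%) lies at the dashed line.

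The HC nuclei came from another mouse, a microfluidic platform and a table of their own, so their levels stand beside those of the NE nuclei without a ratio. *Bdnf* was detected in 7 of 23 HC nuclei (30.4%, interval 13.2 to 52.9%), with a highest value of 33.8 TPM and 29 counts in sum. *Ntrk2* was detected in 5 (21.7%, interval 7.46 to 43.7%) and reached 77.7 TPM, and *Ntrk3* was detected in 12 (52.2%, interval 30.6 to 73.2%) and reached 1218 TPM. *Ntf3* was found in a single nucleus, at 2272 TPM and 493 counts, the highest value of any member in the series. That nucleus had no *Prox1* and detected 3 of 7 granule cell markers and no astrocyte marker. *Ngfr* was above 1 TPM in 5 nuclei with 6 counts in sum. HC nuclei held fewer detected genes (3237 ± 371, SD, n = 23) than FOS- nuclei (6281 ± 1539, SD, n = 41), and *Rbfox3*, which encodes NeuN, was detected in 11 of 23 HC and 31 of 41 FOS- nuclei, so that a lower share of a member cannot be told apart from lower detection in these libraries. Among the 18 HC nuclei in which no other marker list exceeded the granule cell list, *Bdnf* was detected in 7, *Ntrk2* in 3, *Ntrk3* in 9, *Ntf3* in 1 and *Ngfr* in 5.

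In whole cells the members were compared between PTZ and saline. The paper reports that the protease dissociation itself elicited immediate early gene expression whatever the treatment, so that saline cells are not a baseline of inactive cells. The part of the dissociation in the values below was not tested. *Bdnf* was detected in 24 of 30 PTZ cells (80%, interval 61.4 to 92.3%) and 32 of 38 saline cells (84.2%, interval 68.7 to 93.98%). PTZ cells held between 0 and 188 TPM with a median of 54.9 TPM, and saline cells held between 0 and 394 TPM with a median of 80.3 TPM. Of the saline cells, 9 lay above the highest PTZ cell. Mean CPM were 125 in PTZ and 250 in saline cells, so that the mean was 2.00-fold higher in saline cells (log2 ratio -0.997), while the share differed by -4.21 percentage points (interval -25.2 to 15.5). *Ntf3* stood in the same order. It was detected in 15 of 30 PTZ cells (50%, interval 31.3 to 68.7%) and 25 of 38 saline cells (65.8%, interval 48.6 to 80.4%), with medians of 1.02 and 68.4 TPM and mean CPM of 36.7 and 69.5. The sample names end in 1 suffix for all PTZ cells and in another for all saline cells, and whatever batch these suffixes mark cannot be told apart from the treatment.

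With all kept cells, the receptors differed less between the treatments. *Ntrk3* was detected in 25 of 30 PTZ and 32 of 38 saline cells, with medians of 78.1 and 82.7 TPM and mean CPM of 221 and 201. *Ntrk2* was detected in 23 of 30 PTZ and 31 of 38 saline cells, with medians of 27.9 and 34.3 TPM. Its mean CPM of 253 and 261 depended in part on 1 cell in each group. The PTZ cell that carried the astrocyte markers held 653 TPM of *Ntrk2* and 46.2% of the PTZ counts, with *Bdnf* at 0, and without it the PTZ mean was 149 CPM (log2 ratio -0.81). The highest saline cell held 748 TPM and 24.9% of the saline counts, had no astrocyte marker RNA and detected 6 of 7 granule cell markers, and leaving out that cell alone gave a log2 ratio of 0.51. Each of these ratios keeps the high cell of the other group, and a ratio without both cells is not given. *Ngfr* was above 1 TPM in 0 of 30 PTZ and 0 of 38 saline cells, which by a limit of 3 cells allows shares of up to 10% and 7.89%, and by the exact 95% interval up to 11.6% and 9.25%. The 2 PTZ cells in which another marker list exceeded the granule cell list were also left out together. The log2 ratios of PTZ over saline cells were then -0.958 for *Bdnf*, -0.898 for *Ntf3*, -0.876 for *Ntrk2* and 0.230 for *Ntrk3*. With all kept cells they were -0.997, -0.92, -0.04 and 0.13. None of the 4 members considered was past the rule, which 2.26% of the 13748 genes considered were as higher and 1.56% as lower in PTZ cells. None of 105 pathway genes considered was past it either. The immediate early genes were detected in both treatments, *Arc* in 14 of 30 PTZ and 17 of 38 saline cells, *Fos* in 26 and 30 and *Egr1* in 18 and 30.

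The order of the members by level per length was not the same in all groups. In FOS+ nuclei mean TPM ran from *Bdnf* (298) and *Ntrk3* (290) through *Ntrk2* (143) and *Ntf3* (17.7) to *Ngfr* (0.0960). In FOS- nuclei it ran from *Ntrk3* (270) through *Ntrk2* (54.2), *Bdnf* (18.2) and *Ntf3* (16.8) to *Ngfr* (0.0593). In saline cells the order was *Ntrk3* (143), *Bdnf* (115), *Ntf3* (94.2), *Ntrk2* (56.2) and *Ngfr* (0.0342), and in PTZ cells *Ntrk3* (136), *Bdnf* (53.1), *Ntrk2* (50.9) and *Ntf3* (48.2), with *Ngfr* at 0. Without the 2 PTZ cells in which another marker list exceeded the granule cell list, *Ntf3* (48.6) stood above *Ntrk2* (28.7) as in saline cells, below *Ntrk3* (145) and *Bdnf* (54.3). In HC nuclei it was *Ntrk3* (111), *Ntf3* (98.8, from 1 nucleus), *Ntrk2* (6.61), *Bdnf* (3.97) and *Ngfr* (0.777). Neighbours in these orders mostly differed by less than the SD over cells. In FOS+ nuclei *Bdnf* exceeded *Ntrk3* in 24 of 40 nuclei, and in FOS- nuclei *Ntrk3* exceeded *Ntrk2* in 33 of 41. Saline cells held *Ntf3* above *Ntrk2* in 22 of 38. Both ligands were detected in the same cell in 23 of 38 saline and 14 of 30 PTZ cells, and in 2 of 40 FOS+ and 4 of 41 FOS- nuclei. Whole cells and NE nuclei differ in strain, animals, depth and read layout, and no test was made between them.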

How the data were processed

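Full-length cDNA libraries of single cells and nuclei were sequenced, without molecular identifiers, as paired-end reads for whole cells and HC nuclei and single-end reads for NE nuclei. The authors trimmed the reads and aligned them to GRCm38 with RSEM and Bowtie 1.0.0 and the Ensembl annotation. The deposited expected counts are RSEM's estimates of reads per gene, with no normalization, and the deposited TPM values scale them by transcript length within each cell. No comparison columns are held in these files. The tables hold no spike-in rows.

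Cells were kept if the summed expected count was over 50000 and its detected genes (TPM above 1) numbered more than the table's mean minus 2 SD, and HC nuclei were kept without this limit (1 was below it). CPM was the expected count scaled by the cell's sum to the usual fixed total. With 1 sample per group no test was run. Exact Clopper-Pearson and Poisson intervals, the latter on sums rounded to whole numbers, have a level of 95% and cover counting error only, and the interval of a share difference combined those of its 2 shares. The floor was 3 counts over a group. The script that applies the rule of 20 points and 2-fold was tested on simulated data.

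The members and lists were chosen with earlier results of these data known. Named genes were the members, *Arc*, *Fos* and *Egr1*, the pathway genes past the rule (some are not reported here; *Ntf5* and *Sort1* were chosen for mention with values in view), the 3 genes most like each member detected in at least 20 NE nuclei, and markers. *Rbfox3* was named after its values had been seen. Positions and overlapping genes are from GENCODE M21 on GRCm38, the authors' build. The libraries do not mark strand, and *Bdnf*, *Ntrk2* and *Ntrk3* overlap antisense or intronic genes whose reads cannot be told apart from theirs. Promoter windows are from RefSeq. Alternatives changed the cells kept, the detection limit, depth (thinning to 50000 counts), scaling (TMMwsp, edgeR 4.0.16) and single cells. Python 3.11.15, pandas 2.3.3 and scipy 1.17.1 were used.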

Additional observations from a re-analysis of the deposited data

Results flagged for a closer look

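Among the libraries left out for low depth, *Bdnf* was found in 37.5% of the FOS+ nuclei, 3 of 8, with an interval of 8.52 to 75.5%, and in 14.3% of the FOS- nuclei, 1 of 7, with an interval of 0.361 to 57.9%, at median sums of 7335 and 9874 counts. It was likewise detected in 1 of 5 PTZ cells left out (20%, interval 0.505 to 71.6%) and 0 of 9 saline cells. The median sums of these whole cells were only 499 and 575 counts, so that a detection there can rest on very few reads. These values stand out only because they lie in libraries that entered no comparison of the report other than the alternative with all cells, and above those of the control libraries, and the intervals overlap.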

How the results depend on the processing

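In FOS+ against FOS- nuclei, the share difference of *Bdnf* ran from 27.3 to 62.7 percentage points over 12 alternatives. Its log2 ratio of mean CPM, 4.06, was 4.295 with TMMwsp library sizes, 3.91 without the highest nucleus, 4.42 without the FOS- nucleus highest in *Bdnf* and *Ntrk2*, and 3.94, 4.50, 6.09 and 3.51 in the amplification conditions (1 µM TSO at 1:200 and 1:2000, then 10 µM). For *Ntrk2* the share difference was 50 points at 1 µM and 1:200. Its log2 ratio, 1.28, was 1.21 with all nuclei, 1.43 with TMMwsp, 1.3999 for mean TPM, 1.21 for summed counts, 1.56 without its highest nucleus, which is that same FOS- nucleus, and 1.79, 0.86, 0.43 and 2.26 in the conditions. TMMwsp moved the median log2 ratio of all genes from -0.22 to -0.07. The log2 ratio of *Bdnf* in PTZ over saline cells, -0.997, was -0.64 with all cells, -1.06 with TMMwsp, -1.11 for mean TPM, -0.78 for summed counts, -0.89 without the highest cell and -0.95 without the cell with the most astrocyte markers. Genes past the rule numbered 253 higher with all nuclei and 253 higher and 194 lower at 4-fold, beside 474 and 421. In whole cells they numbered 87 lower with all cells and 130 higher and 70 lower at 4-fold, beside 311 and 214. Of 209 alternative values, 146 stayed within the counting interval of the reported value (for counts, within 1.5 times), and the cause of the others was not tested. The alternatives that leave out the FOS- nucleus, the astrocyte-marker cell or the cells in which another marker list exceeded the granule cell list were chosen after seeing the data. The log2 ratio of *Ntf3* could not be had in both conditions with 1 µM TSO, where no FOS+ nucleus held it. No paired analysis was possible because the FOS+ and FOS- nuclei shared 1 animal and no label pairs single cells or nuclei. No test was run, and values within each amplification condition stand in place of a paired analysis. With 30 to 41 cells a group, the intervals of the share differences of *Bdnf* and *Ntrk2* lay above 0 in FOS+ over FOS- nuclei. The other intervals of the members in both comparisons held 0, including those of *Bdnf* and *Ntrk2* in whole cells. These intervals cover counting error within 1 sample per group and are not a test.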
